A study of Mus musculus with 2 samples.

Results

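The immediate early genes examined were Fos, Fosb, Jun, Junb, Jund, Egr1, Atf3, Ier2, Dusp1 and Zfp36, which are 10 of the 31053 genes in the count matrices of a mouse lung single-cell study. They were taken by symbol. All 10 were found in both matrices, and each had at least 20 unique molecular identifiers (UMIs, the tags that mark single captured transcripts) over both libraries. The cells came from NG2tdT mice, in which a tamoxifen-inducible Cre under the NG2 (Cspg4) promoter switches on the Ai14 reporter tdTomato in NG2-expressing cells and their descendants. Both groups carried these alleles, and neither label names a change at Epas1. The methods describe male mice of 2 to 4 months, given 2 mg of tamoxifen per dose and rested for at least 7 days. One group, labelled Normoxia, was untreated, and the other, labelled Hypoxia, breathed 10% oxygen for 21 days. Diced lungs were digested for 30 min before the cells were loaded. There was 1 library per group, although the labels speak of replicates, so no spread between animals could be measured and no test was made. Every difference given is a difference between 2 libraries, and the 95% intervals cover counting error only.

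Immediate early genes are transcribed within minutes of a stimulus, without new protein synthesis, when kinase cascades activate transcription factors that already sit in the cell. Fos and Jun family proteins pair to form the transcription factor AP-1, Egr1 and Atf3 are transcription factors of the same early wave, Dusp1 is a phosphatase that shuts the kinases off again, and Zfp36 is a protein that speeds the decay of inflammatory transcripts. In cells taken from solid tissue these genes are also known to respond to enzymatic digestion and handling. The levels below are therefore those of dissociated cells.

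The sequences before the transcription start are shown because the early genes are known for short response elements there. RefSeq promoters on GRCm38.p6 were matched for 8 of the 10 genes, all but Egr1 and Ier2. In the 250 bases before each start, both strands were searched for the serum response element (CArG box), the cAMP response element TGACGTCA and the AP-1 site TGANTCA, and a TGACGTCA match cannot also count as TGANTCA. Dusp1 held a cAMP response element 143 to 136 bases before its start, and Zfp36 held a CArG box 58 to 49 bases before its start. The Fos window, shown for comparison, held none of the 3 motifs, and neither did those of the other 5 genes. Of all 32851 promoter windows of the same length, 1.55% held the cAMP response element, 1.47% the CArG box and 6.75% the AP-1 site. These are matches of letters, not measured binding. The search would miss an element that lies further than 250 bases before the start or that departs from the pattern by a letter. A window without a match therefore does not show that the gene, Fos included, lacks such an element. The windows follow 5′ to 3′ on the strand of the gene, with the matched motif in capitals, from chr12:85473640-85473889 (plus strand) for Fos, chr17:26508473-26508722 (minus strand) for Dusp1 and chr7:28379229-28379478 (minus strand) for Zfp36.
Fos: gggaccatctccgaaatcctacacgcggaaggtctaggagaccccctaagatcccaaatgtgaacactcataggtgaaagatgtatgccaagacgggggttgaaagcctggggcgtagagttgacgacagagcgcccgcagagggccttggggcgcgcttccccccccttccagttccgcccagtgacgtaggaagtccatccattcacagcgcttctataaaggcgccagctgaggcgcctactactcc
Dusp1: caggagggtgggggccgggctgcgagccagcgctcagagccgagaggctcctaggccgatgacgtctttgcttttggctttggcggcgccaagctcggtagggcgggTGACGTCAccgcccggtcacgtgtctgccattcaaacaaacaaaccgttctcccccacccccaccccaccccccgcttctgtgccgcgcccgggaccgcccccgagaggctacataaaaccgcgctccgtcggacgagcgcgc
Zfp36: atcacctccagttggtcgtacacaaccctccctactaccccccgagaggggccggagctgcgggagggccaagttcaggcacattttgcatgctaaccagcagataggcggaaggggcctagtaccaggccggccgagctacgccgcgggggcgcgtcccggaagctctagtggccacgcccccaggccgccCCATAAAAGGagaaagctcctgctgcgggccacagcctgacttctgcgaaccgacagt

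In GENCODE M21 on GRCm38, Fos (ENSMUSG00000021250) spans chr12:85473890-85477273 with 4 exons. Fosb (ENSMUSG00000003545) spans chr7:19302696-19310051 with 4 exons. The Jun family genes each have 1 exon, Jun (ENSMUSG00000052684) at chr4:95049034-95052222, Junb (ENSMUSG00000052837) at chr8:84974484-84978718 and Jund (ENSMUSG00000071076) at chr8:70698949-70700616. Egr1 (ENSMUSG00000038418) lies at chr18:34859823-34864984, Atf3 (ENSMUSG00000026628) at chr1:191170296-191218039 and Ier2 (ENSMUSG00000053560) at chr8:84661331-84662852. Dusp1 (ENSMUSG00000024190) lies at chr17:26505590-26562128 and Zfp36 (ENSMUSG00000044786) at chr7:28376784-28380253. These spans cover all transcripts of a gene and do not always begin at the RefSeq start used above. The Dusp1, Zfp36 and Atf3 promoter windows lie inside the spans given here, and the Jund window ends some way before its span. The gene models of Jun, Junb, Jund, Atf3, Dusp1 and Zfp36 overlap those of other genes, among them Junos, Prdx2 and Ergic1. The overlapping models lie on the opposite strand, except AC122252.4 and AC122252.1, which lie on the strand of Dusp1. How the counting treated overlaps is not given in the sources used here, so the counts of these 6 genes carry that uncertainty.

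After filtering, 293 Normoxia and 453 Hypoxia cells were retained, with 1112485 and 1592173 UMIs and a median of 3135 and 2818 UMIs per cell. Cspg4 itself had a UMI in 1 and 2 of these cells, although the cells are labelled as sorted reporter cells. Of the study's other pericyte markers, Pdgfrb had a UMI in 27 and 10 cells, Cox4i2 in 12 and 4, and Higd1b in 4 and 4. None of 16 clusters was named pericyte-like, but cluster 7, described below, carried pericyte markers beside fibroblast markers. The libraries shared 2 cell barcodes. Mitochondrial UMIs made up 3.07% and 3.31%, and the nuclear RNA Malat1 3.14% and 2.38%, of the Normoxia and Hypoxia UMIs. The mitochondrial maximum of 5% left out 51 Normoxia and 146 Hypoxia barcodes. The part of these differences in the results was not tested.

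Over all retained cells every one of the 10 genes was lower in the Hypoxia library. Levels are given in CPM, the UMIs of a gene per 1000000 UMIs of the cells concerned, and differences as the log2 ratio of CPM, Hypoxia over Normoxia. The summed level of the 10 genes was 7867 CPM (8752 UMIs) in Normoxia against 3827 CPM (6093 UMIs) in Hypoxia, or -1.04 on the log2 scale (-1.09 to -0.99). A gene was counted as lower when it was at least 1.5-fold lower with an interval below 0, and 10 of 10 met this; the share of all 9813 genes with at least 20 UMIs that did was 10.1%, given as background only, since the genes were chosen with their lower level in Hypoxia known. The median log2 ratio was -1.05 over the 10 genes and 0.040 over all 9813. With equal weight per cell in place of summed UMIs, 6 of 10 genes were 1.5-fold lower, and the other 4 were Junb (-0.57), Ier2 (-0.45), Zfp36 (-0.19) and Dusp1 (-0.089).

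Among the AP-1 subunits, Fos had 1465 UMIs in Normoxia and 939 in Hypoxia, or 1317 and 589.8 CPM, a log2 ratio of -1.16 (-1.28 to -1.04). Fosb, its close relative, had 331 and 118 UMIs, or 298 and 74.1 CPM, a log2 ratio of -2.01 (-2.32 to -1.70). Jun, the main partner of Fos, had 1737 and 1032 UMIs, or 1561 and 648 CPM, with a log2 ratio of -1.27 (-1.38 to -1.16). Junb and Jund, the other 2 Jun proteins, were close to each other. Junb had 1363 and 1016 UMIs, or 1225 and 638 CPM, and Jund 1438 and 1076 UMIs, or 1293 and 676 CPM, both with a log2 ratio of -0.94. Their intervals ran from -1.06 to -0.82 and from -1.05 to -0.82.

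Egr1, a zinc finger transcription factor induced by growth factors and stretch, had 402 UMIs in Normoxia and 142 in Hypoxia, or 361 and 89.2 CPM, with a log2 ratio of -2.02 (-2.30 to -1.74). Atf3, a stress-induced factor of the ATF and CREB family, had 219 and 81 UMIs, or 197 and 50.9 CPM, with a log2 ratio of -1.95 (-2.34 to -1.58). With Fosb, these were the 3 genes with the lowest ratios and with the fewest Hypoxia UMIs, and their intervals overlapped.

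The smallest differences belonged to Ier2 and to both feedback genes. Ier2, a short nuclear protein of the early wave, had 601 and 559 UMIs, or 540.2 and 351 CPM, with a log2 ratio of -0.62 (-0.79 to -0.45). Dusp1 had 813 and 774 UMIs, or 731 and 486 CPM, a log2 ratio of -0.59 (-0.73 to -0.44), and Zfp36 had 383 and 356 UMIs, or 344 and 224 CPM, a log2 ratio of -0.62 (-0.83 to -0.41). The intervals of these 3 genes lay above those of Fos, Jun, Fosb, Egr1 and Atf3. Among neighbours in the order, Jun and Fos overlapped, as did Fos and the Junb and Jund pair.

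**Figure D1:**
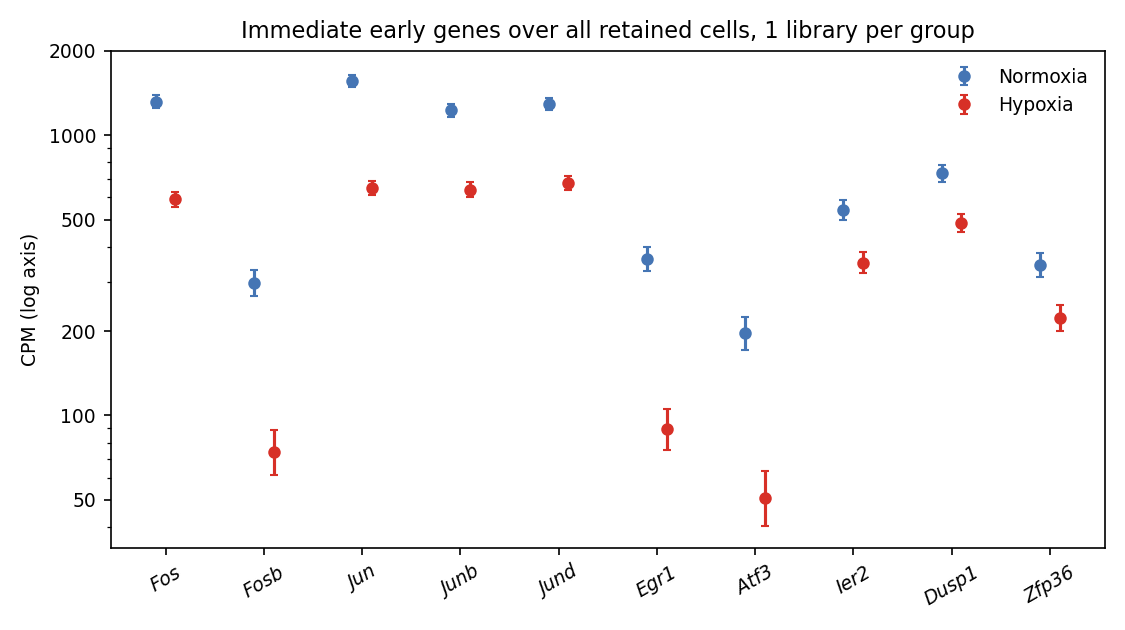
CPM of each of the 10 genes over all retained cells (log axis), with 1 point per library and exact Poisson 95% intervals. Each Hypoxia point lies under its Normoxia point, with the widest gaps for Fosb, Egr1 and Atf3 and the narrowest for Ier2, Dusp1 and Zfp36.

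These totals mix cell types that carried very different levels and that were captured in different numbers. Clusters were made without the early genes and named from marker genes. The neutrophil-like cells had the highest summed level in both libraries, 31395 CPM in 2 Normoxia cells and 25765 CPM in 28 Hypoxia cells, at a median of only 1290 and 690.5 UMIs per cell. Next came cluster 7, in which fibroblast markers were the most numerous (6, against 4 of pericytes). It was left unnamed because the pericyte markers Rgs5 and Kcnj8 and the smooth muscle markers Acta2 and Tagln were among its leading genes. It had 21332 CPM in 45 Normoxia cells and 17705 CPM in 6 Hypoxia cells. The innate lymphoid type 2-like cells had 12608 CPM in 17 and 9027 CPM in 5 cells, and the macrophage or monocyte-like cells 12242 CPM in 28 and 5781 CPM in 46 cells. The lowest levels were those of the T or NK-like cells, with 3692 and 2561 CPM, the endothelial-like cells, with 4420.3 and 2363 CPM, and cluster 10, with 3013 and 2893 CPM. Cluster 10 was an endothelial cluster by its markers but was left unnamed because the airway gene Scgb1a1 led it.

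Cluster 7 held 12.8% of all Normoxia UMIs but 34.6% of the Normoxia early gene UMIs. In Hypoxia it held 1.06% of all UMIs and 4.89% of the early gene UMIs. Without this cluster the summed level was 5898 CPM in Normoxia against 3679 CPM in Hypoxia, or -0.68 on the log2 scale (-0.73 to -0.63) in place of -1.04. Without it Ier2 had a log2 ratio of -0.083 (-0.28 to 0.11), an interval that holds 0. With the 5 named classes of at least 10 cells per library given the Normoxia shares in both libraries, the summed level was 5713 and 3587 CPM, a log2 ratio of -0.67 (-0.74 to -0.60). Adding clusters 7 and 10 to this common mix gave 7573 and 5422 CPM and -0.48 (-0.57 to -0.40), whereas the same cells with each library's own mix gave -1.15 (-1.20 to -1.10).

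**Figure D2:**
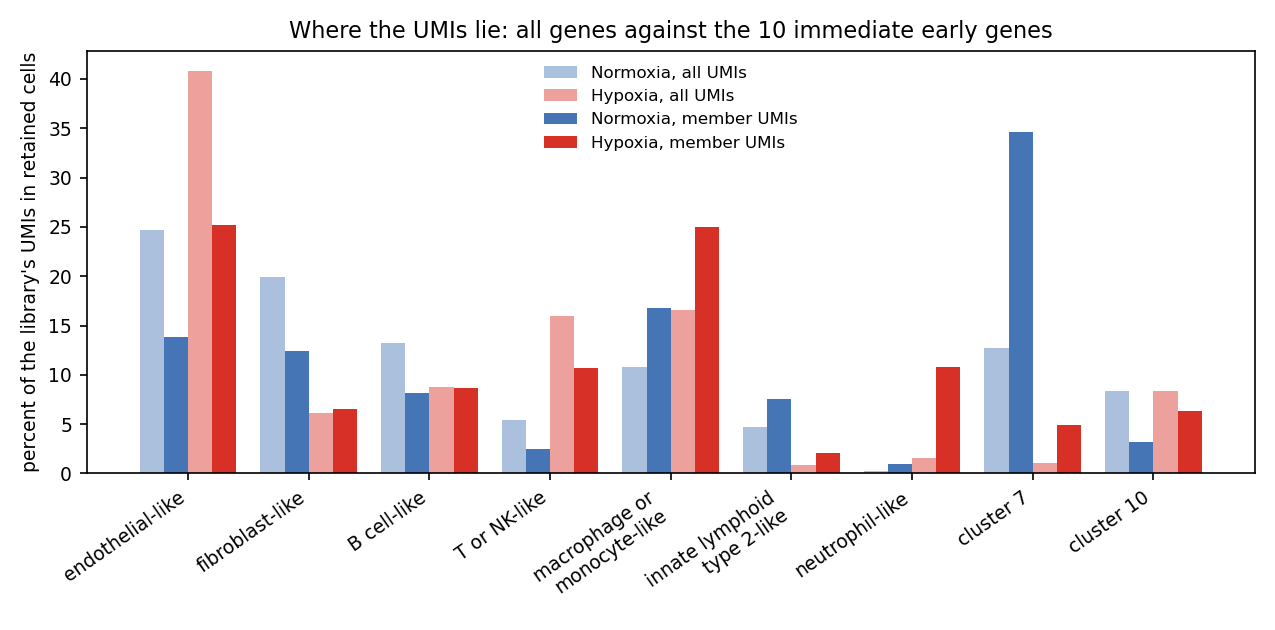
Share of each library's UMIs that lay in each cell class or unnamed cluster (percent), for all genes (pale bars) and for the 10 early genes (dark bars). In Normoxia cluster 7 stands out, with 12.8% of all UMIs and 34.6% of the early gene UMIs, and in Hypoxia the neutrophil-like cells hold 1.61% and 10.8%.

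The question of whether the lower level was shared by all cell types was asked in the 5 classes with at least 10 cells in each library. The summed level was lower in Hypoxia in 5 of 5 classes, each with an interval below 0, but by unequal amounts. The log2 ratio was -1.08 (-1.19 to -0.98) in macrophage or monocyte-like cells and -0.90 (-1.01 to -0.79) in endothelial-like cells. It was -0.53 (-0.75 to -0.30) in T or NK-like cells, from 3692 to 2561 CPM, and -0.37 (-0.53 to -0.20) in B cell-like cells, from 4872 to 3773 CPM. Of the 55 Hypoxia B cell-like cells, 14 formed cluster 16, which had 0 Normoxia cells and 4786 CPM, and in cluster 8, which held the rest, the ratio was -0.49 (-0.67 to -0.31) and that of Junb -0.75 (-1.16 to -0.35), past the 1.5-fold rule. Fibroblast-like cells had the smallest difference, -0.26 (-0.43 to -0.10), from 4884 to 4071 CPM. There 1 Normoxia cell held 155 of the 1083 Normoxia early gene UMIs. In this class alone of the 5, the upper quartile per cell was higher in Hypoxia, 60.9 against 53.0 early gene UMIs per 10000 UMIs. The lower quartile was higher in Hypoxia in macrophage or monocyte-like cells, 22.2 against 13.5, and in B cell-like cells, 24.6 against 14.97. It was lower in Hypoxia in endothelial-like, T or NK-like and fibroblast-like cells. The lower summed level was thus not a shift of all cells in each class. All these intervals count UMIs and take no account of how unequally cells carried them. The intervals of the first pair did not reach those of the other 3 classes, and the latter overlapped one another in the order given. Outside this set, innate lymphoid type 2-like cells had -0.48 (-0.77 to -0.20), cluster 7 -0.27 (-0.45 to -0.10), neutrophil-like cells -0.29 (-0.62 to 0.07) and cluster 10 -0.06 (-0.28 to 0.17).

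Gene by gene, 7 of 10 genes were lower by the 1.5-fold rule in endothelial-like cells (6.13% of all genes there), 9 in macrophage or monocyte-like cells (6.56%), 3 in fibroblast-like cells (7.57%), 2 in B cell-like cells (7.18%) and 2 in T or NK-like cells (7.1%). Of the 10 genes, 9 had at least 20 UMIs in endothelial-like cells, 9 in B cell-like and 7 in T or NK-like cells, and all 10 in the other 2 classes. No gene was higher by the same rule in any of the 5 classes, where this was so of 4.29% of all genes in endothelial-like, 10.4% in macrophage or monocyte-like, 6.06% in fibroblast-like, 12.2% in B cell-like and 3.22% in T or NK-like cells. No gene had an interval below 0 in all 5 classes either. Jun, Junb and Dusp1 did in 4, Fosb, Jund and Atf3 in 3, Fos in 2, and Egr1, Ier2 and Zfp36 in 1, which for these last 3 was the macrophage or monocyte-like class.

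**Figure D3:**
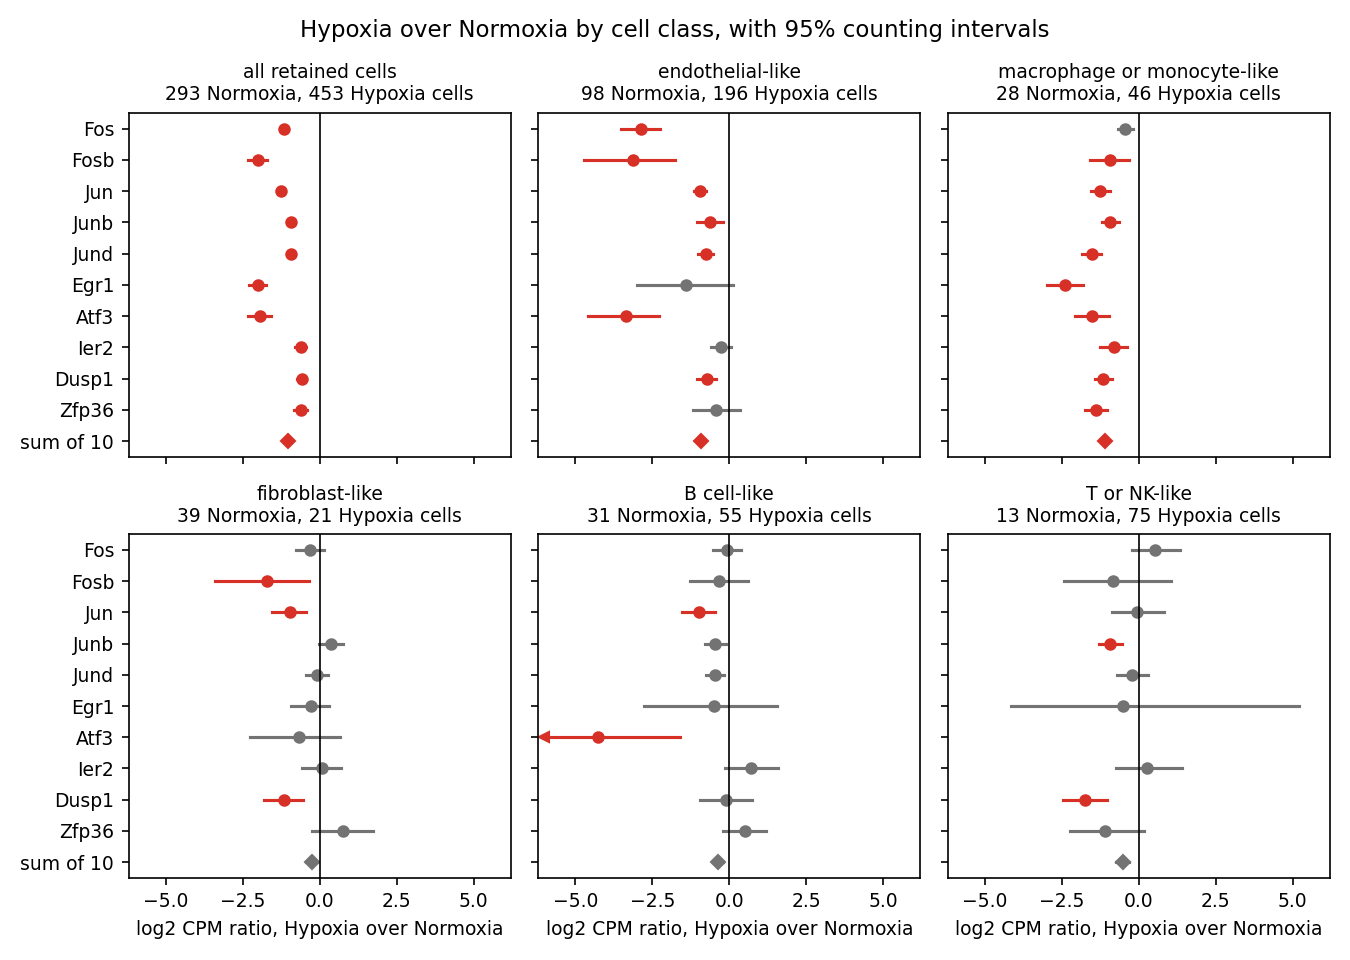
Log2 CPM ratio of Hypoxia over Normoxia for each gene and for their sum (diamond), over all retained cells and in 5 cell classes, with exact 95% counting intervals (an arrowhead marks one that runs off the axis). Red marks a ratio at least 1.5-fold lower with an interval below 0, and grey all others; 9 genes are red in macrophage or monocyte-like cells and 2 in B cell-like cells, and Atf3 has no point in T or NK-like cells because it had 0 Normoxia UMIs.

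In endothelial-like cells the Fos proteins and Atf3 stood furthest apart. Fos had 92 UMIs in 21 of 98 Normoxia cells and 30 UMIs in 16 of 196 Hypoxia cells, or 335 and 46.2 CPM, a log2 ratio of -2.86 (-3.51 to -2.25). A single Normoxia cell held 25 of the 92 Fos UMIs. Atf3 had 39 and 9 UMIs and a log2 ratio of -3.36 (-4.59 to -2.29), and Fosb 22 and 6 UMIs and a log2 ratio of -3.12 (-4.71 to -1.77). In Normoxia 14 of the 39 Atf3 UMIs and 9 of the 22 Fosb UMIs came from 1 cell each. Fosb was found in only 6 of the 98 Normoxia cells. Jun, which made up 36.4% and 35.2% of the early gene UMIs in this class, had 441 and 541 UMIs, or 1607 and 832 CPM, with a log2 ratio of -0.95 (-1.13 to -0.76). Jund (-0.76), Dusp1 (-0.73) and Junb (-0.63) were also lower, while the intervals of Ier2 (-0.28, -0.60 to 0.05), Zfp36 (-0.43, -1.17 to 0.34) and Egr1 (-1.41, -2.99 to 0.13) held 0.

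The largest endothelial-like cluster was not the same in the 2 libraries. Cluster 3, led by Plvap and Hilpda, held 42 of 98 Normoxia cells, and cluster 2, led by Ntrk2, held 122 of 196 Hypoxia cells. Within cluster 3 the summed level was 5331 CPM in Normoxia against 2487 CPM in Hypoxia, or -1.10 on the log2 scale (-1.31 to -0.89), and within cluster 2 it was 3221 and 2288 CPM, a ratio of -0.49 (-0.74 to -0.24). In cluster 3 the top 5 Normoxia cells held 52.7% of the Normoxia early gene UMIs, and the top 4 Hypoxia cells 45.4% of those in Hypoxia. The medians per cell were 33.1 and 22.6 early gene UMIs per 10000 UMIs in cluster 3 and 25.5 and 19.7 in cluster 2. In cluster 11, led by Car4 and Ednrb, the summed level was 4191 and 3029 CPM, a ratio of -0.47 (-0.72 to -0.22). In this cluster 1 Normoxia cell held 31.2% of the Normoxia early gene UMIs. Its median per cell ran the other way, 30.3 early gene UMIs per 10000 UMIs in Normoxia and 32.8 in Hypoxia. There Fos had 28 UMIs in 4 Normoxia cells, 25 of them in 1 cell, and 0 in the 20 Hypoxia cells. Taking 3 UMIs as the most that a count of 0 allows in the library's cells of this cluster, Fos was at least 11.7-fold lower, a bound that rests on that single cell.

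Macrophage or monocyte-like cells showed another order. Egr1 had 86 UMIs in Normoxia and 36 in Hypoxia, or 717 and 137 CPM, a log2 ratio of -2.39 (-2.99 to -1.81). Jund had 205 and 157 UMIs, or 1709.5 and 597 CPM, a ratio of -1.52 (-1.83 to -1.21), and Zfp36 142 and 119 UMIs, or 1184 and 452 CPM, a ratio of -1.39 (-1.75 to -1.03). Fos, with 240 and 389 UMIs or 2001 and 1478 CPM, had the smallest difference here, -0.44 (-0.67 to -0.20), and made up 16.3% of the early gene UMIs in Normoxia and 25.6% in Hypoxia. Part of the class was present in Hypoxia alone. Cluster 15, led by the alveolar macrophage genes Chil3 and Ear2, had 15 Hypoxia and 0 Normoxia cells and a summed level of 2315 CPM. In cluster 9, led by C1qa and Retnla, the summed level was 13327 CPM in 19 Normoxia cells and 8239 CPM in 10 Hypoxia cells, a ratio of -0.69 (-0.85 to -0.54). In cluster 13, led by Ccl3 and Ccr2 among others, it was 10214 and 6885 CPM in 9 and 21 cells, a ratio of -0.57 (-0.74 to -0.40). There 1 Normoxia cell held 41.9% of the Normoxia early gene UMIs. The median per cell in cluster 13 ran the other way, 18.3 early gene UMIs per 10000 UMIs in Normoxia and 63.4 in Hypoxia. Within clusters 9 and 13 Fos had ratios of -0.12 (-0.44 to 0.21) and 0.32 (-0.12 to 0.78).

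The 3 remaining classes held the early genes unequally. In B cell-like cells Jun had 92 and 44 UMIs, or 627 and 316 CPM, a log2 ratio of -0.99 (-1.54 to -0.46), and Atf3 had 20 UMIs in 7 Normoxia cells and 1 UMI in Hypoxia, a ratio of -4.25 (-9.62 to -1.60). Fos in these cells had 88 and 79 UMIs and a ratio of -0.08 (-0.54 to 0.37). In T or NK-like cells Junb had 87 and 195 UMIs, or 1453 and 768 CPM, a ratio of -0.92 (-1.29 to -0.54), and Dusp1 31 and 39 UMIs, a ratio of -1.75 (-2.47 to -1.02), whereas Fos had 17 and 103 UMIs and a ratio of 0.51 (-0.23 to 1.35). The 13 Normoxia T or NK-like cells also carried endothelial marker genes at a summed 2138 CPM against 228 CPM in the 75 Hypoxia cells, 11 and 7 of 11 markers being detected, and the part of this in the differences was not tested. In fibroblast-like cells Fosb (-1.70, -3.40 to -0.35), Dusp1 (-1.16, -1.82 to -0.54) and Jun (-0.98, -1.54 to -0.45) were lower. Junb had 157 and 89 UMIs there, or 708 and 915 CPM, with a ratio of 0.37 (-0.02 to 0.75).

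**Figure D4:**
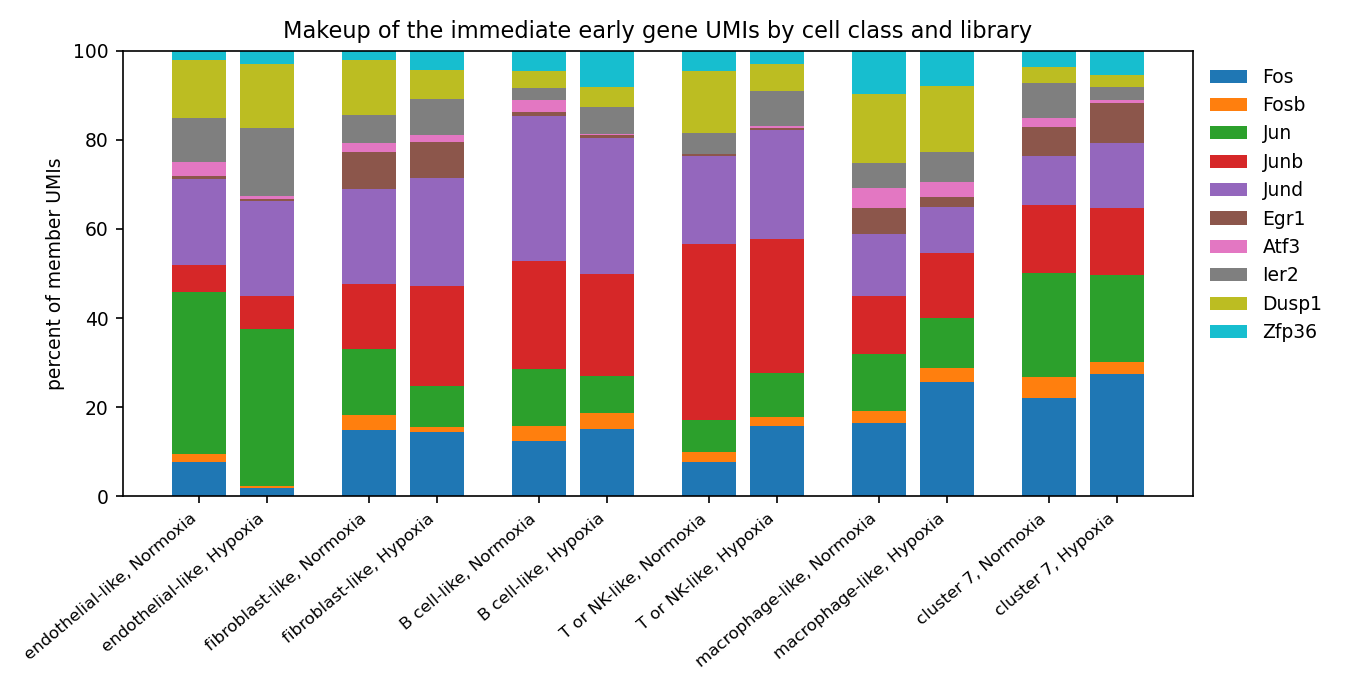
Percent of the early gene UMIs that each gene contributed, in 5 cell classes and cluster 7, with 1 bar per library. Jun makes up 36.4% and 35.2% in endothelial-like cells, Junb 39.4% and 30.0% in T or NK-like cells, and Fos 22.1% and 27.5% in cluster 7.

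The makeup of the early gene UMIs differed between cell classes. In endothelial-like cells Fos made up 7.58% of them in Normoxia and 1.95% in Hypoxia, whereas in cluster 7 it made up 22.1% and 27.5%. Jund, the Jun protein known for its steady expression, made up 32.4% and 30.6% in B cell-like cells. Egr1 made up 8.22% and 8.08% in fibroblast-like cells and under 1% in B cell-like, T or NK-like and endothelial-like cells of both libraries.

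Per cell, the early genes had a median of 31.1 UMIs per 10000 in Normoxia and 26.7 in Hypoxia, with upper quartiles of 78.0 and 49.8 and highest values of 928 and 585. Cells above 100 per 10000 numbered 60 of 293 (20.5%, 16.0 to 25.6) in Normoxia and 48 of 453 (10.6%, 7.92 to 13.8) in Hypoxia. They held 69.0% of the early gene UMIs in Normoxia and 30.8% in Hypoxia. This limit uses the early gene level itself, so the split is a description. Of these high cells, 21 in Normoxia and 5 in Hypoxia were of cluster 7, and 2 and 28 were neutrophil-like.

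The shares of high cells went different ways. They were 11 of 28 (39.3%, 21.5 to 59.4) and 8 of 46 (17.4%, 7.82 to 31.4) of the macrophage or monocyte-like cells, 5 of 31 (16.1%, 5.45 to 33.7) and 1 of 55 (1.82%, 0.0460 to 9.72) of the B cell-like cells, and 5 of 98 (5.10%, 1.68 to 11.5) and 1 of 196 (0.510%, 0.0129 to 2.81) of the endothelial-like cells. They were 5 of 39 (12.8%, 4.30 to 27.4) and 1 of 21 (4.76%, 0.120 to 23.8) of the fibroblast-like and 1 of 13 (7.69%, 0.195 to 36.0) and 1 of 75 (1.33%, 0.0338 to 7.21) of the T or NK-like cells. The share was higher in Hypoxia in cluster 7, with 21 of 45 (46.7%, 31.7 to 62.1) and 5 of 6 (83.3%, 35.9 to 99.6), and all neutrophil-like cells of both libraries were high. These exact Clopper-Pearson intervals overlapped in each class. The medians per cell were 53.1 and 47.4 per 10000 in macrophage or monocyte-like cells, 29.1 and 21.0 in endothelial-like, 45.3 and 38.2 in B cell-like, 46.9 and 25.3 in T or NK-like and 23.9 and 22.9 in fibroblast-like cells, so that each was lower in Hypoxia. Cluster 7 ran the other way by its median, 49.3 in Normoxia and 153 in its 6 Hypoxia cells, while its Normoxia cells ranged from 4.43 to 928. The high Normoxia cells had 5.33% Malat1 UMIs and the other Normoxia cells 2.62%, against 3.27% and 2.32% in Hypoxia, and cluster 7 alone had 7.51% and 6.47%. The part of this in the differences was not tested.

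**Figure D5:**
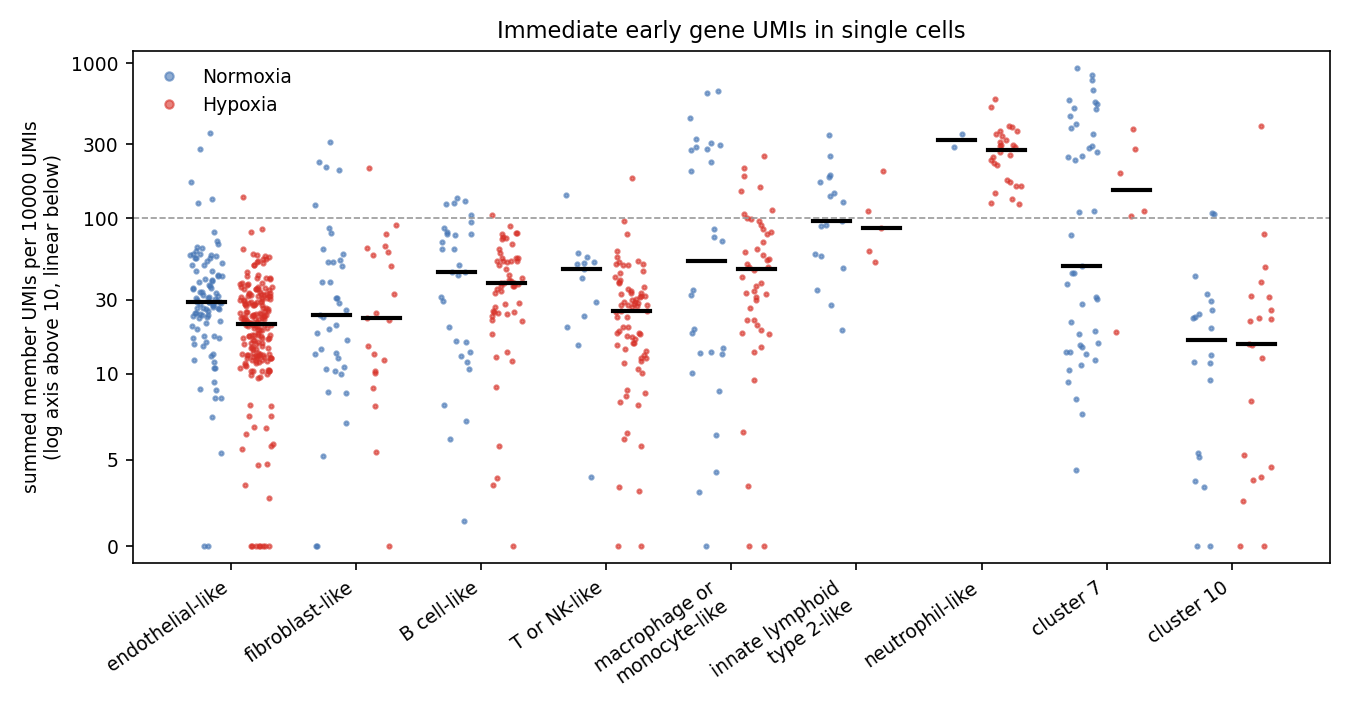
Summed UMIs of the 10 early genes per 10000 UMIs in every cell (log axis above 10, linear below), by cell class or unnamed cluster and library, with 1 point per cell, black bars at the medians and a dashed line at 100. Normoxia cells reach 928 in cluster 7 and 661 among macrophage or monocyte-like cells, where the highest Hypoxia cells have 375 and 252.

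When each cell was thinned to 1000 UMIs, which kept 287 Normoxia and 418 Hypoxia cells, 89.2% (85.0 to 92.5) and 88.8% (85.3 to 91.6) had a UMI of any early gene, against 97.6% and 96.5% without thinning. These shares differed by less than their intervals, and a cell showed a mean of 3.06 of the genes in Normoxia and 2.33 in Hypoxia. Of the 35 Hypoxia cells too shallow to thin, 21 were neutrophil-like, of which 7 remained with a mean of 6.29 of the genes, and 0 neutrophil-like cells were lost in Normoxia. The Hypoxia shares and mean thus leave out most cells of the class with the highest level. Egr1 was found in 16.0% (12.0 to 20.8) and 5.02% (3.14 to 7.58) of cells, Fosb in 14.6% (10.8 to 19.3) and 6.46% (4.30 to 9.26) and Jund in 60.3% (54.4 to 66.0) and 46.7% (41.8 to 51.6), intervals that do not overlap. Ier2 was found in 26.5% (21.5 to 32.0) and 25.8% (21.7 to 30.3). Without thinning these shares were 25.6% and 11.5% for Egr1, 24.9% and 16.1% for Fosb, 79.2% and 71.3% for Jund and 53.2% and 54.7% for Ier2. All these shares pool cell types captured in unequal numbers. Cluster 7 gave 45 of the 287 thinned Normoxia cells and 6 of the 418 thinned Hypoxia cells. In its thinned Normoxia cells Egr1 was found in 44.4%, Fosb in 28.9% and Jund in 68.9%. How far the mix of cells sets the differences in these shares was not tested. Barcodes dominated by haemoglobin, as of red blood cells, which make no new transcripts, showed an early gene UMI in 3 of 28 (10.7%, 2.27 to 28.2) and 1 of 14 (7.14%, 0.181 to 33.9). They had a median of only 48.5 and 53 other UMIs, so their early gene level, 4 of 2895 and 1 of 1230 UMIs, is too loosely known to set apart from that of the lowest classes.

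Among the barcodes left out for mitochondrial UMIs, 51 in Normoxia and 141 in Hypoxia without those dominated by haemoglobin, the early genes had 5829 and 3129 CPM, a log2 ratio of -0.90 (-1.05 to -0.74). The ratio was above 0 in them for Zfp36 alone among the 10 genes, with 18 and 82 UMIs and a ratio of 0.37 (-0.37 to 1.20).

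Other genes of the early response were followed in lists, over all retained cells and by the same 1.5-fold rule. By this rule 10.1% of all genes with at least 20 UMIs were lower and 9.43% higher. Of the other AP-1 family genes, 3 of 5 with at least 20 UMIs were lower and 0 higher, with a median log2 ratio of -0.61. The small Maf proteins Mafk (45 and 28 UMIs, -1.20, -1.94 to -0.49) and Maff (64 and 45 UMIs, -1.03, -1.61 to -0.45) were lowest. The lymphoid and dendritic cell factors Batf (15 and 15 UMIs) and Batf3 (11 and 24 UMIs) were highest, with ratios of -0.52 and 0.61 and intervals that held 0. Of other early transcription factors, 5 of 13 were lower and 0 higher, with a median of -0.25. The nuclear receptors Nr4a1 (85 and 54 UMIs, -1.17, -1.69 to -0.66) and Nr4a2 (25 and 17 UMIs, -1.07, -2.05 to -0.13) were lowest, and the early response genes Ier3 (147 and 282 UMIs, 0.42, 0.13 to 0.72) and Ier5 (193 and 399 UMIs, 0.53, 0.28 to 0.79) highest.

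The early feedback and effector genes were the most divided list. Of 24, 9 were lower and 2 higher, beside 10.1% and 9.43% of all genes, with a median of -0.24. Cyr61, a secreted matrix protein and target of the coactivator YAP, had 202 and 34 UMIs and a ratio of -3.09 (-3.66 to -2.56), and Nfkbiz, a nuclear IκB protein, 100 and 44 UMIs and -1.70 (-2.25 to -1.18). Dusp2, a phosphatase of activated lymphocytes, had 29 and 130 UMIs and 1.65 (1.06 to 2.28), and Sgk1, a kinase induced by glucocorticoids, 176 and 420 UMIs and 0.74 (0.48 to 1.00). These list ratios mix cell types captured in unequal numbers. Within endothelial-like cells Sgk1 had 132 and 288 UMIs and -0.12 (-0.42 to 0.19). There 2 of 16 genes of the list were lower and 1 higher, beside 6.13% and 4.29% of all genes.

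Of 14 kinases and factors upstream of the early genes, 0 were lower and 0 higher by this rule, with a median of 0.21. The shares over all genes were 10.1% lower and 9.43% higher. Braf (-0.57, -1.41 to 0.26) and the serum response factor gene Srf (-0.35, -1.18 to 0.48) were lowest, at 27 and 26 and at 25 and 28 UMIs. The kinase gene Mapk3 (261 and 542 UMIs, 0.54, 0.32 to 0.76) was highest. Of 12 heat shock genes, which also respond to handling, 0 were lower and 2 higher, with a median of 0.21. Hspa1b (20 and 20 UMIs, -0.52, -1.49 to 0.45) and Dnajb1 (104 and 124 UMIs, -0.26, -0.65 to 0.13) were lowest and the chaperones Dnaja1 (233 and 522 UMIs, 0.65, 0.42 to 0.88) and Hsph1 (13 and 36 UMIs, 0.95, 0.0030 to 1.99) highest. In macrophage or monocyte-like cells 2 of 8 heat shock genes were lower and 0 higher, beside 6.56% and 10.4% of all genes. In B cell-like cells 1 of 6 was lower and 1 higher (7.18% and 12.2%). In endothelial-like cells 1 of 11 was lower and 2 higher (6.13% and 4.29%). Fibroblast-like cells had 0 of 8 lower and 1 higher (7.57% and 6.06%), and T or NK-like cells 0 of 7 lower and 1 higher (7.1% and 3.22%). Over all retained cells the 8 steadily expressed reference genes ranged from -0.07 for the ribosomal protein gene Rplp0 to 0.13 for the isomerase gene Ppia, but within classes they were less even. In endothelial-like cells they ranged from -0.54 (-0.63 to -0.44) for Actb, the actin gene, to 0.42 (0.28 to 0.57) for Tpt1, and in B cell-like cells 1 of the 8 was lower and 2 were higher by the 1.5-fold rule.

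Across 12 combinations of named cell class and library with at least 10 cells, the genes whose log2 level was most like that of the summed early genes, among 3073 candidates, were Nfkbiz (Pearson's r 0.89), Ube2l3 (0.88), Cebpb (0.88), Atg3 (0.87) and Cxcl2 (0.84). The points share libraries and differ in depth, so these values only describe the pattern. Measured against the other 9 early genes in the same way, Zfp36 (0.90), Dusp1 (0.86) and Fos (0.85) lay closest and Jun (0.12) furthest. The 12 combinations include the Hypoxia neutrophil-like cells, which had the highest summed level among them, 25765 CPM, with Jun at 352 CPM. How far these cells set the values was not tested.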

How the data were processed

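The authors deposited raw counts of UMIs per gene and cell barcode, 1 matrix per group, made with Cell Ranger 3.1.0 per the file headers; the methods state alignment with STAR to mm10. The labels speak of replicates; whether animals were pooled is not stated. UMIs collapse amplification copies.

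The retained cells had 200 to 6000 genes and a mitochondrial share of up to 5%, as in the study's methods, which describe whole-lung cells depleted of CD45 and CD326, whereas these labels name sorted tdTomato cells; whether those filters were meant for these libraries is not stated. They were clustered with scanpy 1.11.5 (2000 variable genes without the early gene lists, 15 components, 15 neighbours, Leiden resolution 1.0) and named where at least 3 markers of 1 class were detected in 25% of cells at 2 times the median cluster CPM, more than for any other class, unless markers of a different class prevailed in its 10 leading genes. Doublets were kept; Scrublet marked 1 Normoxia and 2 Hypoxia cells. UMIs were summed per library and class. CPM have exact Poisson intervals, ratios exact conditional binomial and shares Clopper-Pearson intervals, all at 95%. The ratio was tested on simulated data drawn as Poisson counts of summed UMIs. That check has no spread between cells, so it says nothing of how the intervals fare when cells are unequal. The members and lists were chosen with earlier results of these data known. Named genes were the 10 members, the 2 lowest and 2 highest ratios of each list among genes with at least 20 UMIs, and the 5 genes with the most similar profile; 1 gene that this rule names is not reported here. Alternatives were other filters, totals, resolutions, cell weights, class minimums and thinning depths.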

Additional observations from a re-analysis of the deposited data

Results flagged for a closer look

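The endothelial cluster left unnamed because Scgb1a1 led it (cluster 10, 20 Normoxia and 21 Hypoxia cells) differed in direction from some of the named classes for 2 genes. Junb had 15 UMIs in 4 Normoxia cells and 52 UMIs in 9 Hypoxia cells there, a log2 ratio of 1.28 (0.43 to 2.21), whereas it was -0.45 in B cell-like, -0.92 in T or NK-like, -0.63 in endothelial-like and -0.92 in macrophage or monocyte-like cells. In fibroblast-like cells Junb was 0.37 (-0.02 to 0.75). Zfp36 had 3 UMIs in Normoxia and 28 in Hypoxia in the same cluster, a ratio of 2.71 (1.01 to 5.07), against -1.39 (-1.75 to -1.03) in macrophage or monocyte-like cells. In the other 4 classes the interval of Zfp36 held 0, with ratios of 0.50 in B cell-like, 0.75 in fibroblast-like, -0.43 in endothelial-like and -1.08 in T or NK-like cells. In Hypoxia 8 of the 28 Zfp36 UMIs and 14 of the 52 Junb UMIs came from 1 cell each. With 1 library per group, the difference between clusters was not tested.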

How the results depend on the processing

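The summed level stayed lower in Hypoxia in every alternative run, from -1.08 to -0.22 (log2) over all retained cells, from -0.92 to -0.47 in endothelial-like cells and from -0.79 to -0.48 at a common mix of classes, and it was lower in all classes compared, 5 to 7 of them. Over all retained cells it was -0.80 with equal weight per cell, where 6 of the 10 genes were lower by 1.5-fold, and, in alternatives chosen after seeing the data, -0.68 without cluster 7, -0.81 without cluster 7 and neutrophil-like cells and -0.22 for the median over cells. In endothelial-like cells it was -0.75 with a mitochondrial maximum of 10%, -0.68 with none, -0.67 with a maximum of 4000 genes, -0.79 with equal weight per cell, -0.66 with cells placed by their own markers and -0.47 for the median over cells. At the common mix it was -0.77 with a mitochondrial maximum of 10%, -0.79 with none, -0.76 with equal weight per cell and -0.75 with cells placed by their own markers, and adding the unnamed clusters, also chosen after seeing the data, gave -0.48. The share of cells with any early gene UMI was 76.1% and 72.6% after thinning to 500 UMIs and 97.6% and 96.5% without thinning. Of 595 values of single genes in classes, 564 kept their sign. Among those counted as lower in the report, 1 changed sign, Ier2 in macrophage or monocyte-like cells, with 0.042 (-0.48 to 0.58) when cells were placed by their own markers. The cause of these moves was not tested. No paired analysis was possible because each group had 1 library. The depth limits Egr1, Fosb and Atf3 most, with under 10 Hypoxia UMIs each in endothelial-like cells.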

Other observations

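The neutrophil-like cells, too few in Normoxia for a comparison, had early gene levels of a different makeup. In the 28 Hypoxia cells Dusp1 made up 26.6% of the early gene UMIs, Junb 22.6% and Fos 22.0%, whereas Jun had 9 UMIs in 8 cells (1.37%). All 28 cells lay above 100 early gene UMIs per 10000, from 123 to 585. Among the innate lymphoid type 2-like cells, Fosb had 53 UMIs in 12 of 17 Normoxia cells and 1 UMI in 5 Hypoxia cells, a log2 ratio of -3.79 (-9.12 to -1.25), and Jund had 86 and 31 UMIs and a ratio of 0.47 (-0.18 to 1.07).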
